A study of Homo sapiens with 18 samples.

Results

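PHOX2A, HAND2, GATA2, GATA3, ISL1, INSM1, TBX2 and KLF7 are transcription factors of the sympathetic lineage, placed in the core regulatory circuit of noradrenergic neuroblastoma. They were taken by gene symbol, and all 8 had a row among the 26372 gene symbols of the table. Of these rows, 13785 had a mean of at least 1 FPKM (fragments per length of transcript and per number of mapped fragments) over the 18 libraries and were tested. The tested set held 7 of the 8 factors. INSM1 was below that level and is given by its values alone.

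Sympathetic neurons and the noradrenergic cells of the adrenal medulla come from the neural crest. There the homeobox protein PHOX2A, the basic helix-loop-helix protein HAND2 and the zinc finger proteins GATA2 and GATA3 switch on each other and the genes for making, packing and taking up noradrenaline. In neuroblastoma, the childhood tumour of this lineage, such factors bind together at large enhancers, their own included, and hold cells in a noradrenergic state. A second state, called mesenchymal, carries other factors and resembles neural crest cells before they become neuroblasts.

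SH-SY5Y is an established human neuroblastoma cell line. All 6 groups carried ZNHIT3 from a lentivirus built on the FUGW plasmid, in which a ubiquitin promoter drives the insert. ZNHIT3 is a zinc finger protein that takes part in the assembly of small nucleolar ribonucleoproteins. The constructs held the wild-type sequence (WT), the substitution C14R or a deletion. The deletion is labelled 251-254 for the first replicate, 251-255 for the second and 251-256 for the third, and titled as depleted. Cells were infected 48 hours before induction. Day 18 cells had been moved from medium with serum to serum-free medium with all-trans retinoic acid at 10 µM, BDNF at 50 ng/ml, KCl at 20 mM and dibutyryl cyclic AMP at 2 mM. Time, loss of serum and the added agents cannot be told apart as sources of a difference between day 0 and day 18. No library without a ZNHIT3 construct was used here, so the comparisons are between constructs and not with unmodified cells. Each construct had 3 libraries at day 0 and 3 at day 18. The labels do not say that the 3 came from separate cultures, so p-values measure the spread between these libraries, which may be technical.

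The cell type was checked against its markers. Of 13 neuroblast markers, 12 had a group mean above 1 FPKM in every group, among them DBH, DDC and CHGB. All but 1 of 13 mesenchymal markers did so too. At day 0 the mesenchymal markers summed to 1165 to 1424 FPKM and the neuroblast markers to 1085 to 1226. Such levels therefore do not tell the noradrenergic state from the mesenchymal. TH, the first enzyme of noradrenaline synthesis, lay between 0 and 0.0804 FPKM at day 0 and between 0.289 and 1.02 at day 18. ZNHIT3 itself, in which endogenous and delivered transcripts are not separated, had means of 538, 424 and 302.5 FPKM for WT, C14R and the deletion at day 0, and of 1153, 653 and 301.5 at day 18. The deposited values hold no counts, so the absolute depth is unknown. By the steps of low values, day 0 libraries had 58.6% to 84.1% and day 18 libraries 81.8% to 100% of the depth of the deepest library. C14R replicate 1 of day 18 stood apart from the rest: it held the highest or the lowest value of the 9 day 18 libraries in 54.2% of the genes tested, and in the other 17 libraries that share was 14.8% to 30.8% within their day. It did so for 7 of the 7 tested factors, so most values resting on it are also given without it or with single libraries left out.

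The 8 genes lie on 8 different chromosomes. In GENCODE release 29 on GRCh38, all 8 are protein-coding. PHOX2A is at chr11:72239077-72245664 on the minus strand, HAND2 at chr4:173524969-173530229 (minus), GATA2 at chr3:128479427-128493185 (minus) and GATA3 at chr10:8045378-8075203 (plus). ISL1 is at chr5:51383391-51394738 (plus), INSM1 at chr20:20368121-20370949 (plus), TBX2 at chr17:61399896-61409466 (plus) and KLF7 at chr2:207074137-207167267 (minus). HAND2 shares 867 of its 3601 exonic bases (24.1%) with HAND2-AS1 on the opposite strand. Whether the authors' quantification used strand is not given in the sources used here, so the HAND2 values may hold antisense reads. The exons of GATA2, GATA3 and TBX2 share 0 bases with those of GATA2-AS1, GATA3-AS1 and TBX2-AS1.

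RefSeq promoter sequences (GRCh38.p14, 250 bases before to 50 bases from the transcription start) matched 6 of the 8 genes, all but INSM1 and TBX2. Where RefSeq lists several starts, the outermost was used, and gene-level values do not show which start these cells use. Both strands were searched for AGATAA, letters bound by GATA factors, and for TAATTA, a core bound by homeobox proteins. Members of the circuit are known to bind such letters in each other's regulatory regions. AGATAA was in the windows of HAND2 and ISL1 and in no other of the 6, against 10.3% of 35116 promoters. TAATTA was in that of HAND2 alone, against 4.84% of promoters, and overlapped the GATA letters there. The E-box letters CATCTG, recognised by basic helix-loop-helix pairs, were found for KLF7 alone, across its start, against 14.7% of promoters. The 250 bases before the start are shown for HAND2 and ISL1, whose levels moved least between the days, and for GATA2, which fell and held none of these letters. PHOX2A, which rose, and GATA3, which fell less than GATA2, also held none of them and are not shown. A relation of these letters to the day changes was not tested. Capitals mark the matches on either strand, from position -175 in HAND2 and from -31 in ISL1, counted from the start. The windows are chr4:173530230-173530479 on the minus strand, chr5:51383198-51383447 on the plus strand and chr3:128493202-128493451 on the minus strand, read 5′ to 3′ along the gene.
HAND2: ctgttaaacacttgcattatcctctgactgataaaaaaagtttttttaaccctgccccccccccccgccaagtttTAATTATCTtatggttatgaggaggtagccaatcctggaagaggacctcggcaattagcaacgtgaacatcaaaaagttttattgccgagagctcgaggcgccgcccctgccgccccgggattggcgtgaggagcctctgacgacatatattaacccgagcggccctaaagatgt
ISL1: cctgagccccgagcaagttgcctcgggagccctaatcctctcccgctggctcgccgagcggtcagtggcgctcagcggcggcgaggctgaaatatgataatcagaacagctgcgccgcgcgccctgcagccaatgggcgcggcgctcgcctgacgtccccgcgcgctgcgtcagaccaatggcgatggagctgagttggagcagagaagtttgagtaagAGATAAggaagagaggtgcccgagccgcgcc
GATA2: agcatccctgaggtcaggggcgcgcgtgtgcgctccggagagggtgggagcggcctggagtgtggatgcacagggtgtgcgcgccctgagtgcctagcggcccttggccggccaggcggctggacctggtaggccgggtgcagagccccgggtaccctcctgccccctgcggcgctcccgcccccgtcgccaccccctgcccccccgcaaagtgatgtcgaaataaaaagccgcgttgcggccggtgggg
A match describes letters in a window and is no evidence of binding in these cells. The G and C content of the 6 windows of 300 bases ran from 42.7% in KLF7 to 73.7% in PHOX2A, around a median of 58.7% over all promoters.

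The 8 factors were present at very different levels. FPKM are scaled to transcript length, so levels of different genes can be set side by side. In WT libraries at day 0 HAND2 was the highest with a mean of 278 FPKM, above 98.5% of the genes tested. GATA2 (98.8), GATA3 (96.2) and PHOX2A (92.8) followed. The ranges of GATA2 and GATA3 overlapped, as did those of GATA3 and PHOX2A. ISL1 (57.4), KLF7 (25.1) and TBX2 (23.4) came next in that order without overlap. INSM1 was listed at 0. At day 18 the WT order was HAND2 (273), PHOX2A (149), GATA3 (69.3), ISL1 (61.0), KLF7 (58.4), GATA2 (26.1), TBX2 (5.10) and INSM1 (0). Of neighbours in that order, only the ranges of ISL1 and KLF7 overlapped. GATA2 thus moved from the second place to the sixth and KLF7 from the sixth to the fifth. C14R libraries had the same orders of means, and deletion libraries the same order at day 18. At day 0 deletion libraries had PHOX2A above the GATA pair and TBX2 above KLF7.

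**Figure D1:**
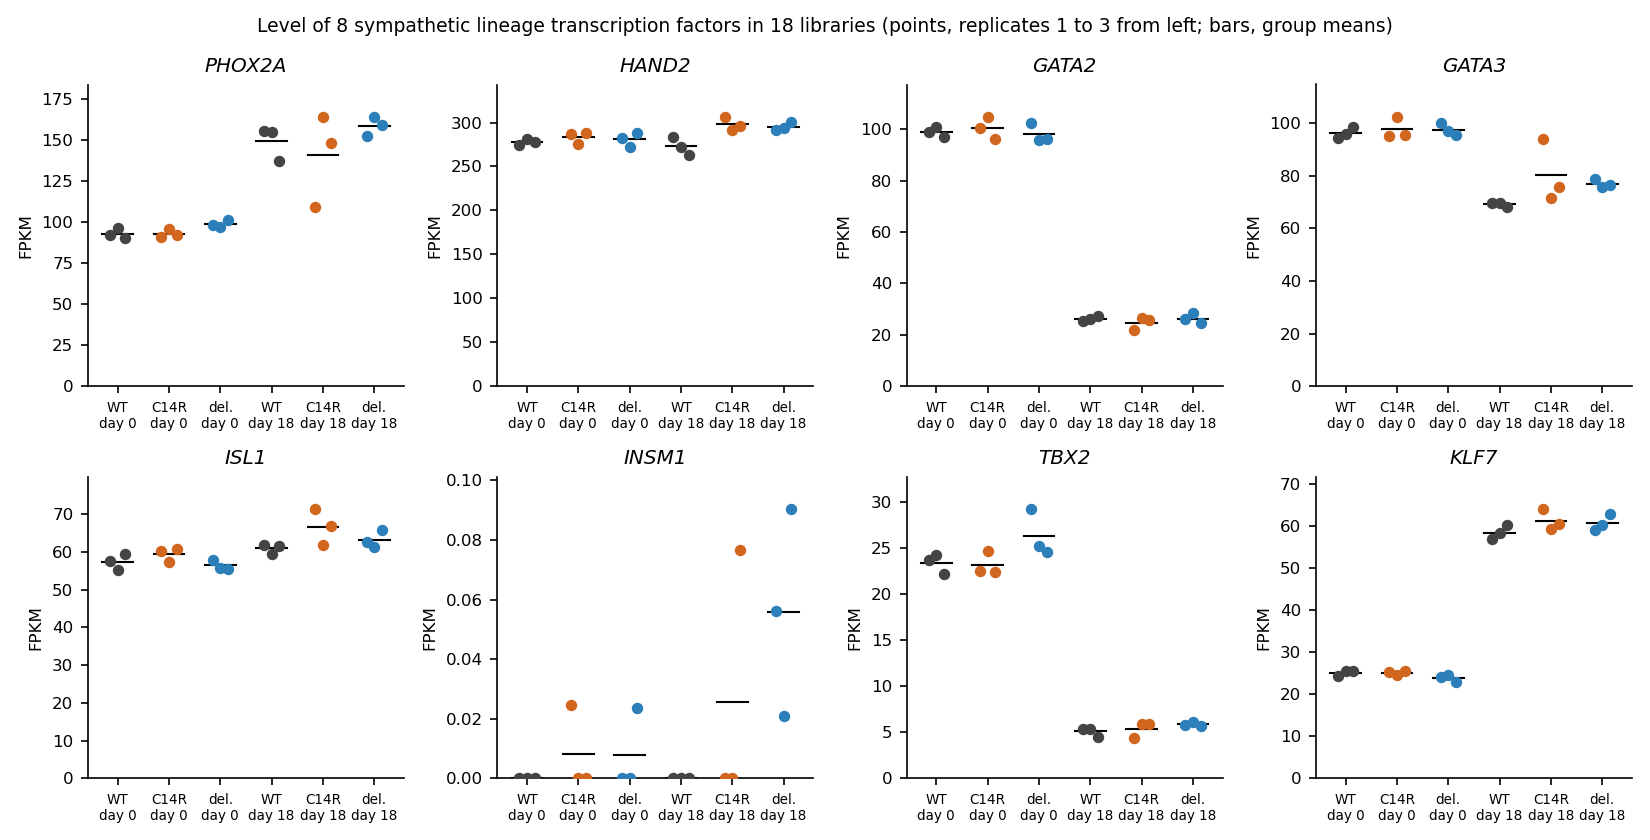
FPKM (vertical axes, linear, starting at 0, one scale per gene) of the 8 factors in each of the 18 libraries, by construct and day. Points are libraries, replicates 1 to 3 from the left, and bars are group means. GATA2 and TBX2 are lower and PHOX2A and KLF7 higher in every day 18 library than in every day 0 library, and INSM1 stays under 0.1 FPKM. GATA3 is also lower in every day 18 library, by a narrow margin (at most 94.0, against at least 94.3 at day 0). The share of all genes with such a separation was not counted, and 38.2% of genes tested rose and 34% fell in WT.

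PHOX2A rose during differentiation with every construct. This homeobox protein acts on the promoters of DBH and TH. At day 0 the 3 WT libraries had 91.9, 96.4 and 90.1 FPKM, and at day 18 they had 156, 155 and 137. C14R libraries went from 90.6, 95.8 and 92.2 to 109, 164 and 149, and deletion libraries from 98.2, 96.9 and 101 to 152, 164 and 159. No day 18 library of any construct reached down to a day 0 library, and the lowest day 18 value was that of C14R replicate 1. How many of all genes separate the days in this way was not counted, here or for the factors below. The mean was 1.61-fold higher at day 18 in WT. On the log2(FPKM + 1) scale, which all changes below use and which understates changes of low genes, PHOX2A rose by 0.68 in WT (SE 0.10, limma adjusted p = 7.4e-06). The rise was 0.57 in C14R (limma adjusted p = 4.6e-05), or 0.74 without C14R replicate 1 of day 18, and 0.68 in deletion libraries (limma adjusted p = 7.2e-06).

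HAND2, which works with GATA factors to start and keep the noradrenergic programme, differed little between the days. WT libraries had 274, 281 and 278 FPKM at day 0, then 284, 272 and 263 at day 18. C14R libraries had 287, 276 and 288 and then 307, 292 and 296, and deletion libraries 283, 273 and 288 and then 292, 294 and 301. The WT ranges of the 2 days overlapped, whereas each variant had its 3 day 18 libraries above its 3 day 0 libraries by a small margin. The log2 change was -0.03 in WT (95% interval -0.10 to 0.05, limma adjusted p = 0.54), 0.07 in C14R (-0.01 to 0.15, limma adjusted p = 0.087) and 0.07 in deletion libraries (-0.01 to 0.15, limma adjusted p = 0.089). Without C14R replicate 1 of day 18, the highest HAND2 library of that day, the C14R change was 0.05. In WT the direction turned with scaling, and in the variants the call did: with quantile normalization the changes were 0.20, 0.29 and 0.33, and with small RNA genes left out and the libraries rescaled 0.18, 0.26 and 0.29, all then past the threshold. That rescaling moved the median change of all genes tested by 0.18 in WT, 0.17 in C14R and 0.20 with the deletion, to 0.21, 0.18 and 0.23. Relative to that median HAND2 differed by -0.03, 0.07 and 0.07. The changes given first are not relative to a median, which was 0.03, 0.02 and 0.03 before rescaling. Quantile normalization left the median of all genes at -0.005, -0.007 and -0.008, but a median does not show a shift that depends on level. In WT it also moved PHOX2A from 0.68 to 0.80, while KLF7 went from 1.19 to 1.20 and TBX2 from -2.00 to -2.03. HAND1, its paralog, fell from 25.0 to 18.4 FPKM in WT (log2 change -0.43, limma adjusted p = 0.00018), and HAND2-AS1, the long RNA from the opposite strand, did not pass the threshold in WT (log2 change -0.12, limma adjusted p = 0.25).

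GATA2 and GATA3 parted. Both are zinc finger proteins that bind GATA letters, and both are needed for sympathetic neurons. GATA2 had 98.8, 101 and 96.8 FPKM in WT libraries at day 0, then 25.3, 26.0 and 27.2 at day 18. C14R libraries went from 100.4, 105 and 96.3 to 21.9, 26.6 and 25.7, and deletion libraries from 102, 95.9 and 96.2 to 25.9, 28.3 and 24.6. Every day 18 value was far below every day 0 value. The WT mean was 3.78-fold lower at day 18, or -1.88 in log2 units (SE 0.06, limma adjusted p = 4.0e-14). The change was -1.99 in C14R (limma adjusted p = 1.9e-14), or -1.90 without C14R replicate 1, and -1.86 in deletion libraries (limma adjusted p = 4.2e-14).

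GATA3 fell less. WT libraries had 94.3, 95.8 and 98.5 FPKM at day 0, then 69.8, 69.8 and 68.2 at day 18. C14R libraries went from 95.4, 103 and 95.5 to 94.0, 71.5 and 75.9, and deletion libraries from 100.2, 97.1 and 95.6 to 78.9, 75.7 and 76.5. No day 18 library reached a day 0 library of any construct, although C14R replicate 1, at 94.0, came close to the lowest of them, at 94.3. The WT mean was 1.39-fold lower at day 18, or -0.47 in log2 units (SE 0.07, limma adjusted p = 7.9e-06). In C14R it was -0.29 (limma adjusted p = 0.0011), or -0.40 without replicate 1, and in deletion libraries -0.34 (limma adjusted p = 0.00025). After rescaling without small RNA genes the variant changes of GATA3, -0.10 (limma adjusted p = 0.18) and -0.12 (limma adjusted p = 0.13), no longer passed, while relative to the median of all genes they were -0.29 and -0.34.

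The 2 GATA factors therefore went from near equal levels to unequal ones. Within a library, the ratio of GATA2 to GATA3 lay between 0.982 and 1.05 in the 9 day 0 libraries, with a median of 1.02. At day 18 it lay between 0.233 and 0.398, with a median of 0.362, and its lowest value was that of C14R replicate 1. A ratio within a library does not change with a scaling factor applied to that library. GATA2-AS1, a long RNA from the opposite strand of the GATA2 locus, went the other way: it rose from 7.66 to 9.93 FPKM in WT (log2 change 0.34, limma adjusted p = 0.00088), by 0.38 in C14R and by 0.31 with the deletion, each past the threshold. The ratio of GATA2 to GATA2-AS1 was 12.1 to 14.7 at day 0 and 1.98 to 3.13 at day 18, with no overlap. GATA3-AS1 fell with GATA3, by 0.38 in WT, 0.33 in C14R and 0.41 with the deletion, and the ranges of the ratio of GATA3 to GATA3-AS1 overlapped between the days (5.06 to 6.36 and 4.77 to 6.63). These ratios were chosen after the values had been seen and are given as a description. How many other gene pairs separate the days in this way was not counted.

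**Figure D2:**
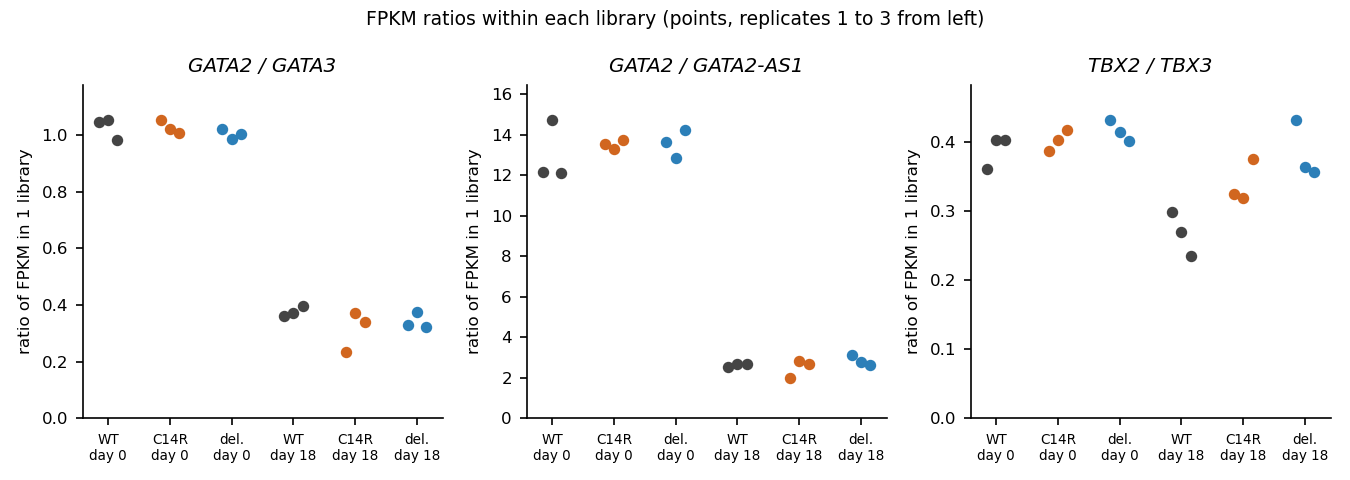
Ratio of FPKM within a library (vertical axes, linear, from 0) for GATA2 to GATA3, GATA2 to GATA2-AS1 and TBX2 to TBX3, by construct and day. Points are libraries, replicates 1 to 3 from the left. GATA2 to GATA3 falls from 0.982 to 1.05 at day 0 to 0.233 to 0.398 at day 18. Over all libraries the day ranges of TBX2 to TBX3 overlap, as they do with the deletion. They do not in WT (0.361 to 0.403, then 0.236 to 0.299) or C14R (0.387 to 0.417, then 0.319 to 0.376).

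ISL1, a LIM homeobox protein of sympathetic and sensory neurons, differed little between the days. WT libraries had 57.6, 55.3 and 59.3 FPKM at day 0, then 61.9, 59.4 and 61.6 at day 18. C14R libraries had 60.3, 57.4 and 60.6 and then 71.3, 61.7 and 66.8, and deletion libraries 57.9, 55.8 and 55.6 and then 62.6, 61.3 and 65.8. The day 18 libraries of each construct lay above its day 0 libraries, in WT by a narrow margin. The log2 change was 0.09 in WT (95% interval -0.01 to 0.19, limma adjusted p = 0.12). ISL1 rose by 0.16 in C14R (limma adjusted p = 0.0061), or 0.11 without C14R replicate 1, and by 0.16 in deletion libraries (limma adjusted p = 0.0057). These small rises depended on the setting. The C14R call was lost in a fit restricted to the 2 groups (limma adjusted p = 0.0501), and the deletion call with median-of-ratios scaling (0.11, limma adjusted p = 0.066). The WT change passed with quantile normalization (0.11, limma adjusted p = 0.041) and after rescaling without small RNA genes (0.29, limma adjusted p = 3.1e-05, or 0.08 relative to the median of all genes). The ISL1 relative ISL2 was at 1.90 FPKM in WT at day 0 and 2.07 at day 18 and did not pass the threshold with any construct.

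INSM1, a zinc finger repressor of early neuroendocrine and sympathoadrenal precursors, was close to absent from the values. It was listed at 0 in 7 of 9 day 0 libraries and 5 of 9 day 18 libraries. The 6 WT libraries were all at 0. At day 0 the values above 0 were 0.0247 in C14R replicate 1 and 0.0235 in deletion replicate 3. At day 18 they were 0.0766 in C14R replicate 3 and 0.0560, 0.0209 and 0.0904 in the 3 deletion libraries. An exact 0 in these files can be a failed estimate, so no fold is given. With no filter on level, no comparison of INSM1 passed the threshold, and the smallest limma adjusted p was 0.062, for the day change in deletion libraries. INSM2, its relative, was measured at 8.08 FPKM in WT at day 0 and 3.83 at day 18 and fell with every construct, by 0.90 in WT, 0.43 in C14R and 0.49 with the deletion on the log2 scale.

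TBX2, a T-box repressor that acts on cell cycle inhibitors, fell with every construct. WT libraries had 23.7, 24.3 and 22.2 FPKM at day 0, then 5.36, 5.40 and 4.53 at day 18. C14R libraries went from 22.5, 24.7 and 22.4 to 4.43, 5.93 and 5.86, and deletion libraries from 29.3, 25.2 and 24.6 to 5.81, 6.16 and 5.71. All 9 day 18 values were below all 9 day 0 values. The WT mean was 4.59-fold lower at day 18, or -2.00 in log2 units (SE 0.09, limma adjusted p = 1.7e-12). The change was -1.93 in C14R (limma adjusted p = 3.0e-12), or -1.81 without C14R replicate 1, and -1.99 in deletion libraries (limma adjusted p = 1.7e-12). Its paralog TBX3 fell with it, from 60.3 to 19.1 FPKM in WT (log2 change -1.61), by 1.80 in C14R and by 1.97 with the deletion, each past the threshold. TBX2-AS1 fell by 1.62, 1.45 and 1.39 in the same order, each past the threshold.

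KLF7, a Krüppel-like factor of postmitotic neurons that supports outgrowth of axons, rose most. WT libraries had 24.3, 25.5 and 25.5 FPKM at day 0, then 56.8, 58.3 and 60.1 at day 18. C14R libraries went from 25.3, 24.5 and 25.6 to 64.0, 59.3 and 60.4, and deletion libraries from 24.1, 24.5 and 23.0 to 59.0, 60.3 and 62.8. The 2 days were far apart with every construct, and the spread within a group was small. The WT mean was 2.33-fold higher at day 18, or 1.19 in log2 units (SE 0.04, limma adjusted p = 5.9e-14). KLF7 rose by 1.25 in C14R (limma adjusted p = 3.0e-14), or 1.22 without C14R replicate 1, and by 1.31 in deletion libraries (limma adjusted p = 1.5e-14). Of the other Krüppel-like factors listed, KLF12 (log2 change 0.87) and KLF13 (0.35) rose in WT, KLF6 (-0.97) and KLF5 (-0.70) fell, KLF3 did not pass, and KLF4 and KLF8 were below the level tested. Over 17 relatives of the 8 factors, 10 were tested, of which 2 rose, 6 fell and 2 did not pass with each construct. Of 8 antisense or neighbouring long RNAs looked up, 4 were in the table, of which 1 rose, 2 fell and 1 did not pass with each construct. Among all genes tested, 38.2% rose and 34% fell in WT, with close shares in the variants.

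**Figure D3:**
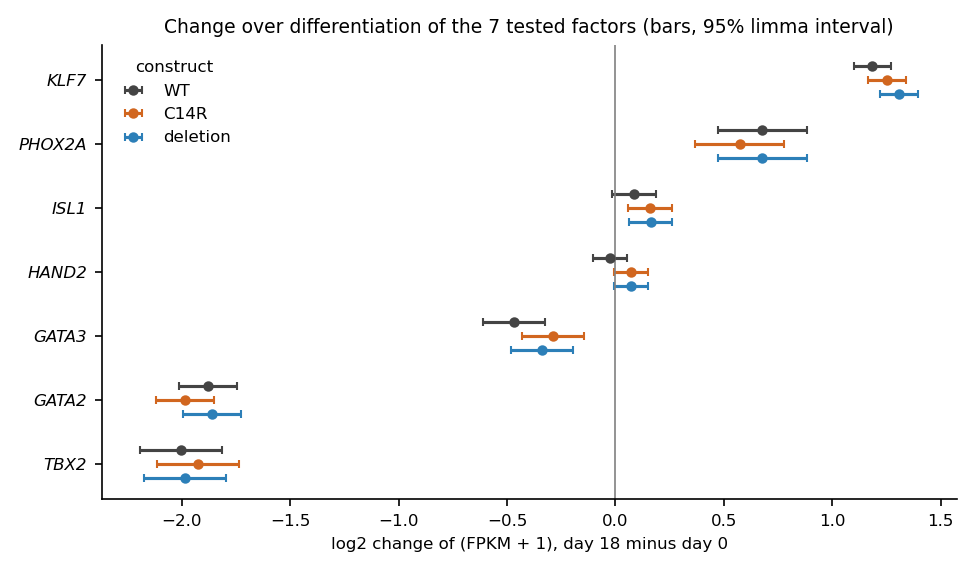
Change from day 0 to day 18 on the log2(FPKM + 1) scale (horizontal axis, day 18 minus day 0) for the 7 tested factors and each construct. Points are limma estimates from 3 libraries a group and bars their unadjusted 95% intervals. KLF7 and PHOX2A lie to the right of 0 and GATA3, GATA2 and TBX2 to the left, while HAND2 and ISL1 lie near 0, where the sign of HAND2 in WT turns with quantile normalization or rescaling without small RNA genes.

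Counted together, 2 of the 7 tested factors rose and 3 fell in WT, and 3 rose and 3 fell in C14R and in deletion libraries. Over all genes tested, 38.2% rose and 34% fell in WT, 37.9% rose and 35% fell in C14R, and 38.6% rose and 34.4% fell in deletion libraries. The shares among the factors were thus near those of all genes. The median log2 change of the 7 was -0.03 in WT and 0.07 in both variants, against 0.03, 0.02 and 0.03 over all genes. The factors hence did not move as a block: the falls of GATA2 and TBX2 and the rise of KLF7 stood beside small differences of HAND2 and ISL1.

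The 21 other factors of the noradrenergic circuit were spread in the same manner. Of 19 tested in WT, 10 rose, 8 fell and 1 did not pass, with a median of 0.14. In C14R the counts were 9, 8 and 2, and in deletion libraries 11, 7 and 1. Over all genes tested 38.2% rose and 34% fell in WT, with a median of 0.03. The largest rises in WT were those of DACH1 (log2 change 2.97, from 4.55 to 42.4 FPKM), EBF3 (1.35), PBX3 (1.17) and EBF1 (1.11). DACH1 is a repressor of the retinal determination family, EBF1 and EBF3 drive neuronal differentiation, and PBX3 is a partner of homeobox proteins. Among those that fell in WT were SIX3 (log2 change -2.19), TBX3 (-1.61) and MYCN (-0.87). SIX3 is a homeobox factor of the early forebrain and eye, and MYCN is the oncogene amplified in many neuroblastomas. TFAP2B, a factor of sympathetic neuroblasts that the WT fit did not call (log2 change 0.05), rose in deletion libraries (0.23, limma adjusted p = 0.0033), but no factor of the list passed the interaction of construct and day. NHLH1 and NHLH2 were below the level tested.

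**Figure D4:**
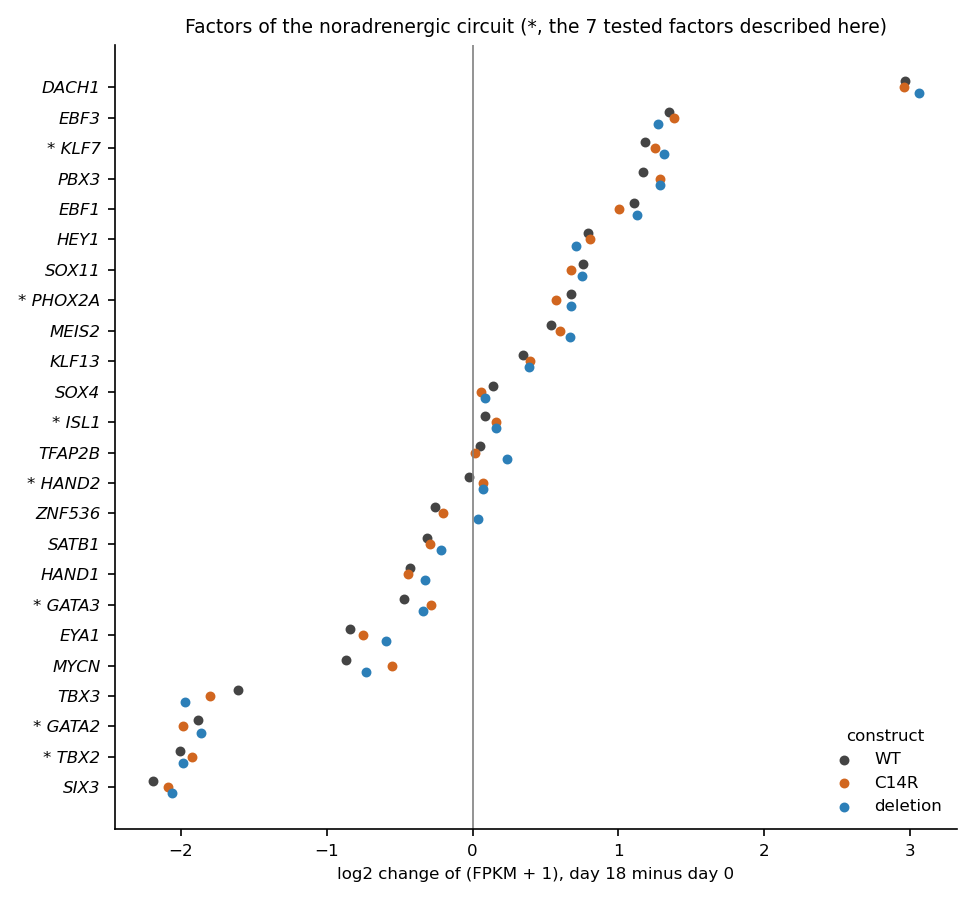
Change from day 0 to day 18 on the log2(FPKM + 1) scale (horizontal axis) for 24 tested factors of the noradrenergic circuit, ordered by the WT change. Points are limma estimates for WT, C14R and deletion libraries, 3 libraries a group, and asterisks mark the 7 tested factors described here. The values drawn run from SIX3 (-2.19 in WT) to DACH1 (2.97 in WT), and the factors lie on both sides of 0.

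Factors of the mesenchymal state mostly fell. Of 19 tested in WT, 15 fell, 3 rose and 1 did not pass, with a median log2 change of -0.95. In C14R the counts were 13, 3 and 3, and in deletion libraries 15, 2 and 2. Over all genes tested 34% fell and 38.2% rose in WT, with a median of 0.03. FOSL1 (-2.27), YAP1 (-1.60) and SNAI2 (-1.52) were among those that fell in WT, and MEF2D (0.59), BHLHE41 (0.31) and NR3C1 (0.24) rose. PRRX1, a homeobox factor that can turn noradrenergic cells mesenchymal, was at 1.66 FPKM in WT at day 0 and listed at 0 in all 3 WT libraries at day 18. Its mean was below the level tested.

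Proteins that work with the 8 factors were also examined. LMO1 and LMO3 are LIM-only proteins, LDB1 joins them to GATA and LIM homeobox factors, TCF3, TCF4 and TCF12 pair with HAND2, and KDM1A and the RCOR proteins act with INSM1. Of 19 partners tested in WT, 13 fell, 2 rose and 4 did not pass, and the counts were 12, 2 and 5 in both variants. Over all genes tested 34% fell and 38.2% rose in WT. The median log2 change of the partners in WT was -0.32, against 0.03 over all genes. LMO4 (log2 change -1.83), LMO1 (-1.14), LDB2 (-1.03) and KDM1A (-1.02, from 93.3 to 45.4 FPKM) fell most in WT. TCF4 (0.46) and RCOR3 (0.20) rose. Among the dimer partners of HAND2, TCF3 (-0.32) and TCF12 (-0.39) fell while TCF4 rose from 105 to 145 FPKM.

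The genes that these factors are known to act on, or that mark noradrenergic cells, mostly rose. Of 19 tested in WT, 16 rose and 3 fell, with a median log2 change of 0.99. The counts were 16 and 3 in C14R, and 16 rose, 2 fell and 1 did not pass in deletion libraries. Over all genes tested 38.2% rose and 34% fell in WT, with a median of 0.03. CHGB, a protein of secretory granules, rose by 3.40 and DBH, the enzyme that makes noradrenaline, by 2.78 (from 64.0 to 445 FPKM) in WT. GAP43, a growth cone protein, rose by 2.51 and NPY, a peptide released with noradrenaline, by 2.31. SLC6A2, which takes noradrenaline back up, fell by 2.53 (from 49.1 to 7.68 FPKM), and CHGA fell by 0.38. Of 3 tested cholinergic genes, ACHE and SLC18A3 rose in WT (log2 change 3.71 and 0.91) and SLC5A7 fell (-2.48), and CHAT was below the level tested.

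Markers of cell types moved with the day as well. The summed level of 13 mesenchymal markers was 1165 to 1424 FPKM over the day 0 libraries and 185 to 202 over the day 18 libraries. Of these markers, 11 of 12 tested fell with each construct, against 34% to 35% of all genes tested. None of the 13 was at 0 in all libraries of a group. The summed level of 13 neuroblast markers was 1085 to 1226 FPKM at day 0 and 2866 to 3064 at day 18. Of these markers, 10 of 12 tested rose with each construct, against 37.9% to 38.6% of all genes tested, and SLC6A2 and CHGA fell in WT. The sum weighs high genes most, such as CHGB, which went from 90.8 to 963 FPKM in WT. The sum of 11 Schwann cell markers was 38.2 to 50.0 at day 0 and 43.2 to 51.3 at day 18. FABP7 was at 0 in all libraries and the lineage factor SOX10 at 0.111 to 0.477 FPKM. The part of such shifts in the falls of GATA2 and TBX2 or the rises of PHOX2A and KLF7 was not tested. In these bulk libraries, fewer cells with a factor and less of its RNA per cell cannot be told apart.

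The ZNHIT3 constructs were then compared at each day. At day 0, C14R against WT had no factor past the threshold by limma, as had no gene at all (0%), and no factor at an unadjusted p under 0.05, against 2.81% of genes. Deletion against WT had 0 of 7 factors past it, against 0.029% of genes, and 0 at an unadjusted p under 0.05, against 6.22%. All 3 deletion libraries lay above all 3 WT libraries for PHOX2A (log2 difference 0.09, 95% interval -0.12 to 0.29, limma adjusted p = 0.89) and TBX2 (0.16, -0.03 to 0.35, limma adjusted p = 0.81, or 0.09 without deletion replicate 1), as they did for 8.68% of genes. Neither difference passed the threshold.

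At day 18 no factor differed past the threshold either. The count was 0 of 7 for C14R against WT, against 0.0363% of genes, and 0 of 7 for deletion against WT, against 0.0725%. At an unadjusted p under 0.05 there were 3 of 7 factors for C14R, against 11.1% of genes, and 2 of 7 for the deletion, against 11.4%. The C14R count and share include C14R replicate 1. HAND2 and GATA3 had all 6 variant libraries above all 3 WT libraries, as had 2.21% of genes. Set apart by variant, 2 of 7 factors (HAND2 and GATA3) had all C14R libraries above WT, against 5.44% of genes, and 3 of 7 (HAND2, GATA3 and TBX2) all deletion libraries, against 10.4%. The same 3 WT libraries serve both comparisons, so the 2 are not independent.

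The sizes of these differences were small. HAND2 was higher than in WT by 0.13 in C14R (95% interval 0.05 to 0.20, limma adjusted p = 0.18) and by 0.11 in deletion libraries (0.04 to 0.19, limma adjusted p = 0.25). As single libraries were left out, these HAND2 differences ran from 0.10 to 0.16 and from 0.09 to 0.14. The WT libraries had 284, 272 and 263 FPKM, and the lowest variant library 292. GATA3 was higher by 0.20 in C14R (0.06 to 0.35, limma adjusted p = 0.26) and by 0.15 in deletion libraries (0.01 to 0.29, limma adjusted p = 0.41). C14R replicate 1, at 94.0 FPKM, set much of the GATA3 value, which was 0.09 without it (limma adjusted p = 0.37). Without C14R replicate 2, at 71.5 FPKM, it was 0.28 and passed the threshold (limma adjusted p = 0.049). ISL1 was higher in C14R by 0.12 (0.02 to 0.22, limma adjusted p = 0.33), or 0.07 without replicate 1, with ranges that overlapped. TBX2 was higher in deletion libraries by 0.18 (-0.01 to 0.37, limma adjusted p = 0.46), or 0.11 without WT replicate 3. PHOX2A was lower in C14R than in WT by a log2 difference of -0.10 (-0.31 to 0.10, limma adjusted p = 0.75), which became 0.07 without C14R replicate 1.

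**Figure D5:**
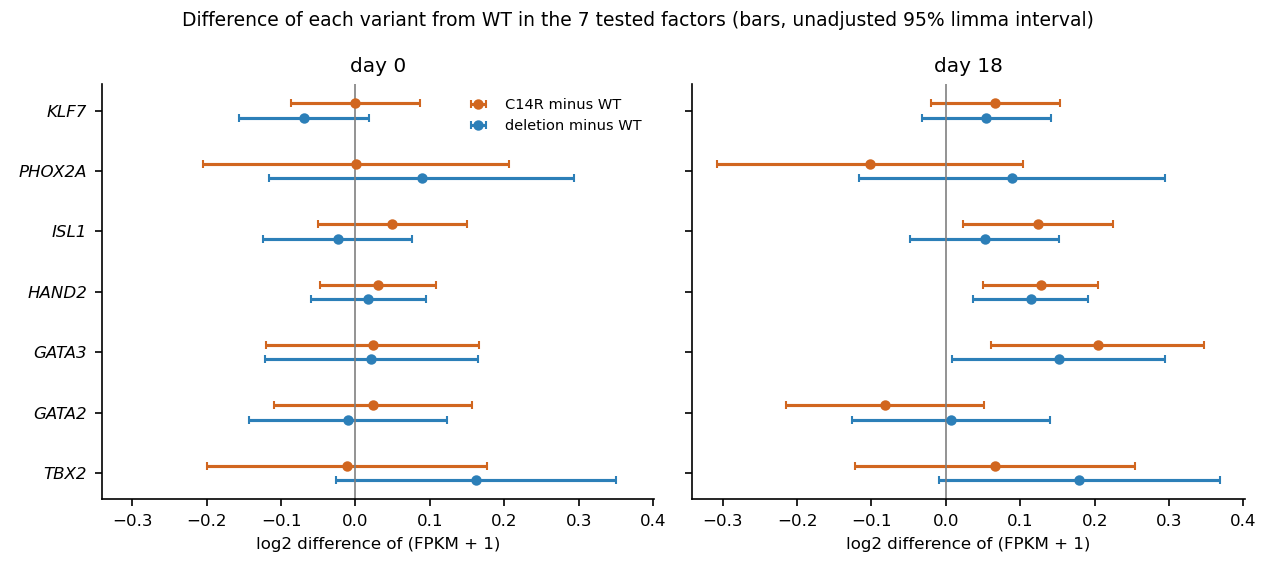
Difference of C14R and deletion libraries from WT on the log2(FPKM + 1) scale (horizontal axes) for the 7 tested factors, at day 0 (left) and day 18 (right). Points are limma estimates from 3 libraries a group and bars their unadjusted 95% intervals. No difference passed the adjusted threshold, and at day 18 the intervals of HAND2 and GATA3 lie above 0 for both variants.

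C14R and deletion libraries were also set against each other. No factor passed the threshold at day 0 (0 of 7, against 0.058% of genes) or at day 18 (0 of 7, against 0.029%), and 0 factors had an unadjusted p under 0.05, against 9.84% of genes at day 0 and 11.2% at day 18. The widest difference at day 18 was that of PHOX2A, -0.19 in C14R relative to deletion (95% interval -0.40 to 0.01, limma adjusted p = 0.45), which was -0.02 without C14R replicate 1. Whether differentiation moved the factors by different amounts in the variants was tested as an interaction of construct and day. It had 0 of 7 factors past the threshold for C14R (against 0% of genes) and 0 of 7 for the deletion (against 0.0145%). The rise of KLF7 exceeded that in WT by 0.12 in deletion libraries (0.00 to 0.25, limma adjusted p = 0.67), the one factor of 7 at an unadjusted p under 0.05 in that test, against 7.36% of genes. For C14R 0 of 7 were, against 5.73%. For HAND2 the extra change was 0.10 in each variant (C14R limma adjusted p = 0.87, deletion 0.76), and for GATA3 in C14R 0.18 (-0.02 to 0.38, limma adjusted p = 0.87), or 0.06 without replicate 1. The HAND2 value for C14R ran from 0.07 to 0.13 as single libraries were left out.

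For each tested factor, the 2 genes with the most similar pattern over the 18 libraries were found by the root mean square difference of log2(FPKM + 1) after centring each gene. Among them were FAM127A (0.0619) for PHOX2A, PEBP1 (0.0340) and HDLBP (0.0433) for HAND2, and FAM222A (0.0690) and PRKCA (0.0831) for GATA2. For GATA3 they were RPL6 (0.0561) and HNRNPUL1 (0.0567), and for ISL1 RGS5 and IRF2BP2 (0.0394 each). TBX2 was nearest to FLNC (0.0994) and MYOF (0.0998), and KLF7 to VPS13D (0.0394) and SC5D (0.0510). PRKCA, a protein kinase C, had mean levels close to those of GATA2, with 95.4 FPKM at day 0 and 23.9 at day 18. FLNC and MYOF, which encode filamin C and myoferlin, were at 11.8 and 4.30 FPKM at day 0 and at 2.50 and 0.307 at day 18. No other factor of the 8 was among these nearest genes. With only 2 genes taken per factor out of 13785 tested, this absence says little about how alike the factors are.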

How the data were processed

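RNA-seq was done on 18 SH-SY5Y libraries, 3 in each of 6 groups of construct and day taken from the titles. Per the labels' protocols, ribosomal RNA was depleted before libraries were made. The authors deposited one table of FPKM, one value per gene symbol and library, and 0 of its columns lacked a sample. The submitters' processing notes name hg38, TopHat2, STAR and Cufflinks 2.2.1, without roles; the annotation and the use of strand are not given in the sources used here. Counts are not part of the table, so no counting interval could be given.

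The values were used as log2(FPKM + 1) without further scaling. Of 26372 genes, 4960 were at 0 everywhere and 13785 with a mean of at least 1 FPKM were fitted with limma 3.58.1 in R 4.3.3, as 6 group means over 18 libraries with a variance trend. P-values were adjusted by Benjamini-Hochberg over all tested genes in each of 11 comparisons, with a threshold of 0.05. The fit was tested on simulated data. Without small RNA genes, FPKM sums were 432666 to 447353 at day 0 and 373553 to 391226 at day 18. Alternatives were a pseudocount of 0.1, no filter or a mean of at least 5 FPKM, 3 scalings, array weights, a replicate block, only the libraries compared, and each library left out.

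The factors, and the lists of circuit factors, mesenchymal factors, partners, relatives, antisense RNAs, targets and cell type markers, were chosen with earlier results of these data known. The text names the 8 factors, from each list at most 4 genes a direction with the largest changes and some of those at 0 in a group, the 2 nearest genes of each factor, and ZNHIT3. Several other listed genes at 0 in a group are not named. Other listed genes named beside a factor, such as relatives, were chosen after their values were seen. A few genes that this rule selects are not reported here, though list counts and sums include them.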

Additional observations from a re-analysis of the deposited data

How the results depend on the processing

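Of the 21 day changes of the 7 tested factors, 17 passed the threshold and 13 of these kept their direction and their call under each of the 15 or 16 settings run for them. The other 4, of GATA3 and ISL1 in the variants, and those gained by HAND2 and ISL1 are given above. The HAND2 change in WT, -0.03, turned to 0.20 with quantile normalization and to 0.18 after rescaling without small RNA genes, and ran from -0.054 to 0.0018 as single libraries were left out. HAND2 in deletion libraries also passed with array weights (0.07, limma adjusted p = 0.041). PHOX2A in C14R against WT at day 18 ran from -0.22 to 0.068 as single libraries were left out, and the number of factors past the threshold in that comparison from 0 to 1. Of 42 other differences of a factor between constructs, or of its day change between constructs, 22 changed sign under at least 1 setting. Their values were at most 0.11 in size, and 0 calls were gained or lost. The ones given singly were picked after all had been seen. The depth is unknown, so how far it limits the low values of INSM1 cannot be given.

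No clear pairing of the samples by replicate number was seen, and the labels do not say what that number marks. Deviations of same-numbered libraries from their group means had correlations of -0.36 to 0.17 (45 pairs, median -0.01, 6 over 0.1). With the replicate block the factors past the threshold were 5, 6 and 6 for the day changes in WT, C14R and deletion libraries and 0 in each of the 8 other comparisons, as without it.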

Other observations

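At day 18 the ratio of TBX2 to TBX3 within a library was 0.299, 0.269 and 0.236 in WT, 0.325, 0.319 and 0.376 in C14R and 0.432, 0.364 and 0.357 in deletion libraries. The 3 WT libraries thus lay below all 6 variant libraries, while the 2 genes taken singly did not differ past the threshold between constructs. The ratio of HAND2 to HAND1 was 10.1 to 12.9 in the 9 day 0 libraries and 13.4 to 17.2 in the 9 day 18 libraries, without overlap. Both were noticed among 8 ratios after the values had been seen and were not tested. The margin of the first was narrow, from 0.299 in WT to 0.319 in C14R. The share of other gene pairs that separate in either way was not counted.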
